A study of Rattus norvegicus with 46 samples.

Results

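The genes described here belong to the major histocompatibility complex (MHC) and the machinery of antigen presentation. Members were the array features whose annotated symbol starts with RT1-, the prefix of the rat MHC, or is one of 15 named genes of peptide processing, loading and transcriptional control. The rule found 44 features, each of a different gene, among 23188 non-control features, of which 15049 carry 1 symbol. No feature with the symbol Nlrc5 or Erap1 was found, so these 2 genes are not described. The members were set out as 30 genes of the class I route, 13 of the class II route and Cd1d1, which encodes a lipid-presenting molecule. No filter on low signals was applied, and all 44 were tested.

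Skin of Sprague-Dawley rats was profiled on 46 single-colour Clariom S arrays from 9 rats, and the question was how RTA-408 changes irradiated normal tissue. RTA-408 is a synthetic triterpenoid that activates NRF2, the transcription factor of antioxidant defence genes. Biopsies of abdominal skin were punched at 5 mm, and each rat was biopsied repeatedly. RNA had a mean integrity number of 7.15.

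The baseline group was 6 arrays of untreated skin taken on day -10. After baseline, skin was taken on days -4, 1, 3, 7 and 14 in 3 arms. All 3 arms were injected on days -7, -5, -3 and 0, so no arm is free of injection. The irradiated RTA-408 arm and the irradiated vehicle arm, which received DMSO, had 3 arrays per day each. Both were given 6 MeV electrons to 40 Gy in 4 fractions of 10 Gy over 8 days, so the biopsies of day -4 fall within the course. The unirradiated arm received DMSO with sham radiation and had 2 arrays per day. Its replicate 2 was rat 318 up to day 3 and rat 317 on days 7 and 14. Ages and sexes are not given in the sources used here.

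MHC class I molecules display peptides made in the cytosol to CD8 T cells. Their heavy chains pair with beta-2 microglobulin, and the peptides are cut by the proteasome and carried into the endoplasmic reticulum by the TAP transporter. MHC class II molecules display peptides from endosomes to CD4 T cells and are made mainly by macrophages, dendritic cells and B cells. The transactivator CIITA switches class II genes on as a block, and interferon gamma raises both routes.

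All RT1 members lie on rat chromosome 20, most within the MHC, and B2m lies on chromosome 3. Promoters are shown for 5 members on which the results turn, 3 of the class I route (B2m, Tap1 and Psmb8) and 2 of class II (RT1-Da and RT1-DMa). Each is a window of 300 bases from a RefSeq table on GRCr8, described as 250 bases before to 50 after a gene's start, which held 40 of the 44 members. For B2m, Psmb8 and RT1-Da the start used lies inside the outer bounds of the annotated gene, so their windows do not end at those bounds. Capitals mark matches, on either strand, of 4 motifs that were searched as letters. These were CCAAT (the CCAAT box bound by NF-Y), GAAA followed after any 2 bases by GAAA (the element bound by interferon regulatory factors, here called the IRF motif), TTCNNNGAA (the element bound by STAT factors) and TGACG (the core of CREB sites), and on the other strand CCAAT reads ATTGG. Matches of different motifs were allowed to overlap.
B2m, chr3:129549080-129549379, forward strand: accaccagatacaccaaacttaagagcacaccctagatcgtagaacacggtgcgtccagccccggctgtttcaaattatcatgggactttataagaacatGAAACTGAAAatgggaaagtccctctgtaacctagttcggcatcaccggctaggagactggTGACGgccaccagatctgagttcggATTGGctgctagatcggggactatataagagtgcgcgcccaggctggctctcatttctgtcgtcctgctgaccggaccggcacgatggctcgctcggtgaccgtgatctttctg
Tap1, chr20:4668494-4668793, reverse strand: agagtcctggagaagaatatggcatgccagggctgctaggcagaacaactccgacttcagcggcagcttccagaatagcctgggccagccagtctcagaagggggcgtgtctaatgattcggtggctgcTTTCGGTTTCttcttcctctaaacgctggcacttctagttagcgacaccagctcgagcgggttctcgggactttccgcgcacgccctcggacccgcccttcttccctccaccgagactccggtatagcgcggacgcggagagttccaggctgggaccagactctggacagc
Psmb8, chr20:4656982-4657281, reverse strand: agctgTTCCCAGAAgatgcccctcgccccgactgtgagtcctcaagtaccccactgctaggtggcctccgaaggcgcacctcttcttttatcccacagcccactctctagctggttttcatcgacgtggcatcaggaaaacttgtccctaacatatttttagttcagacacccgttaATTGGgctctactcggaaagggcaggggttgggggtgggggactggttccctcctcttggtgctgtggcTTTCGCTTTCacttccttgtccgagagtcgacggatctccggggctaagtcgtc
RT1-Da, chr20:4515165-4515464, forward strand: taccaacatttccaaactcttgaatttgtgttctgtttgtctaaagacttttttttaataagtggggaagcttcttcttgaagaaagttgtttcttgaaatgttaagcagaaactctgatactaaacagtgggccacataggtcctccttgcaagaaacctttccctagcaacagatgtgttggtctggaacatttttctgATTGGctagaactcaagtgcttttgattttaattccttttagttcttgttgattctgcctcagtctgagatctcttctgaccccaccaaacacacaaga
RT1-DMa, chr20:4712286-4712585, reverse strand: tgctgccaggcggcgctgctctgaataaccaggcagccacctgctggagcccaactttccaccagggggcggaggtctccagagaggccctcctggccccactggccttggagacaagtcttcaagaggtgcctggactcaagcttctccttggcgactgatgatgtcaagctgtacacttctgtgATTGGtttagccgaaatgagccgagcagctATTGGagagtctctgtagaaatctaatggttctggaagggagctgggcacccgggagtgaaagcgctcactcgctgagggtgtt

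CCAAT was found in 10 of the 11 class II promoters (90.9%) and in 17 of the 28 class I promoters (60.7%), against 37.7% of all 27457 rat promoters of that length. The IRF motif was found in 10 of 28 class I promoters (35.7%), in 0 of 11 class II promoters and in 3.77% of all promoters. In the printed set it lies in B2m, Tap1 and Psmb8, while RT1-Da holds 1 and RT1-DMa 2 matches of CCAAT on the reverse strand. TTCNNNGAA was found in 3 class I (10.7%) and 0 class II promoters, against 8.68% of all. TGACG was found in 8 class I (28.6%) and 1 class II (9.09%) promoters, against 22.0% of all. A match is a description of letters and not a shown binding site.

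Values are the deposited log2 signals, in which 1 unit is a doubling on an unstretched scale. The signals span 2.10 to 19.93, wider than a raw scan allows, so differences are given in deposited log2 units and not as folds. Array medians lay between 6.84 and 6.95, and the median of 1153 negative control features lay between 5.78 and 6.52. Of the 44 members, 21 were above the negative control median on every array and 7 were at or below it on every array (RT1-M1-2, RT1-M1-4, RT1-M1-5, RT1-M3-1, RT1-M5, RT1-T18 and RT1-Ha). Where 1 group lay at that level, some differences are also given as at least the distance from it. The levels of spike-in controls parted the arrays into 3 sets of 18, 10 and 18 arrays. No label names these sets, which were inferred from the values and are called spike-in sets. Set I held all baseline arrays and most arrays of days -4 and 1, set III most arrays of days 3, 7 and 14, and set II 1 array per day of each irradiated arm. Comparisons of days 3 to 14 with baseline therefore run across sets. In a bulk biopsy, fewer cells of a type and less RNA per cell cannot be told apart. RT1 class I genes are close copies of each other, so their signals cannot be assigned to 1 gene alone. Keratinocyte markers (3 measured) averaged 14.7 to 16.2 and fibroblast markers 15.4 to 16.7 on the baseline arrays. The labelled skin therefore carried its defining markers. Skeletal muscle markers averaged 6.90 to 19.4, so arrays differed widely in muscle signal. The part of muscle in the comparisons was not tested.

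**Figure D1:**
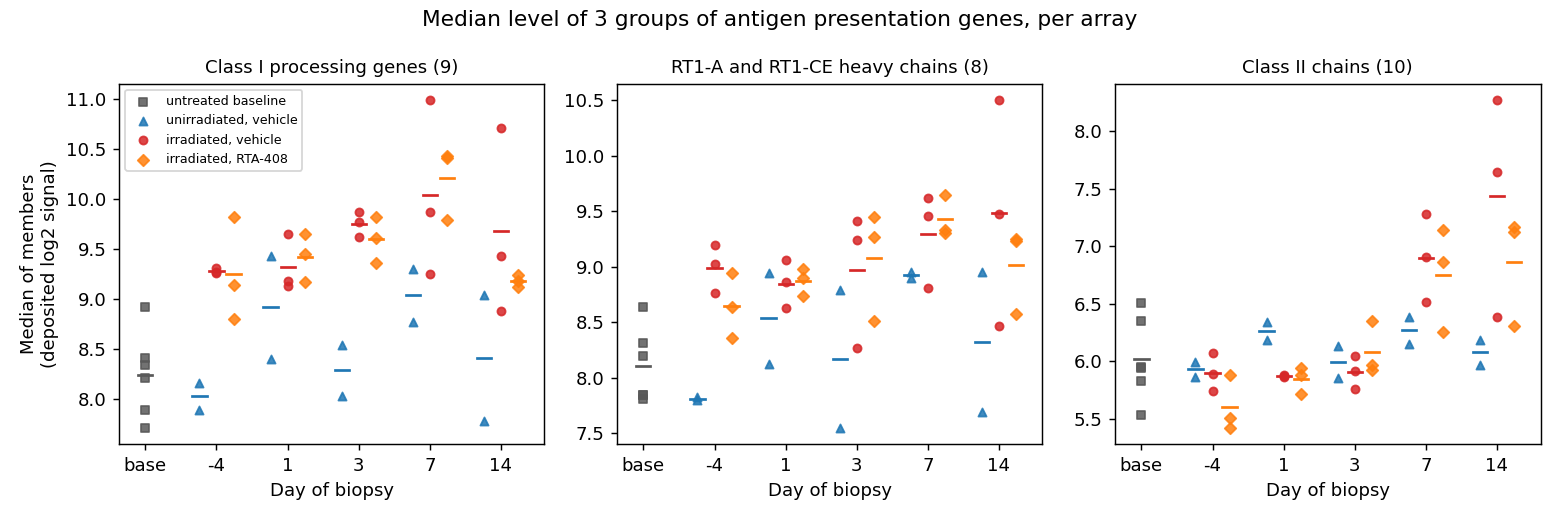
Each point is 1 array, placed by day of biopsy, and gives the median deposited log2 signal of the 9 class I processing genes, the 8 RT1-A and RT1-CE heavy chains or the 10 class II chains; short lines are group means. On day -4 the 3 irradiated vehicle arrays lie at 9.26 to 9.31 for class I processing, above 7.89 and 8.16 without radiation, while the class II chains reach 6.52 to 7.28 on day 7 and 6.39 to 8.27 on day 14 in irradiated vehicle skin.

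Irradiated and unirradiated vehicle skin were compared to ask what radiation alone changed. Genes of the class I route were called higher on day -4, during the course, and again on day 14. Class II genes were called higher on day 14, and 1 of them on day 7. The difference between the classes was not tested. On day -4, 3 of 30 class I genes were higher after radiation, 0 of 13 class II genes passed, and 3.23% of all features were called higher and 4.19% lower. On day 14, 4 class I and 6 class II genes were higher, beside 4.43% of all features, and 1 class I gene was lower, beside 2.53%. Between these days calls were few. On day 1, 1 member was lower (0.901% of all features, with 1.20% higher), on day 3 none passed (0.656% higher and 0.647% lower), and on day 7 1 was higher (2.69%, with 1.33% lower). On day 3, 9 of the 44 members had an unadjusted p under 0.05 in limma, the only tool run.

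B2m encodes beta-2 microglobulin, the light chain that all class I molecules share. On day -4 its log2 signal was 17.27, 17.13 and 16.87 in irradiated vehicle skin and 15.80 and 15.45 in unirradiated skin. Every irradiated array lay above both unirradiated arrays, a difference of 1.47 ± 0.38 (SE, n = 3 and 2; limma adjusted p = 0.0152). Tap1, a subunit of the peptide transporter, gave 9.75, 9.86 and 9.26 against 7.89 and 8.16, again without overlap. Its difference was 1.60 ± 0.46 (SE; adjusted p = 0.0286). Psme1 encodes a subunit of the PA28 proteasome activator and had 13.70, 13.43 and 13.43 against 12.37 and 12.36. The gap between these groups was 1.15 ± 0.28 (SE; adjusted p = 0.00984).

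The RT1-A and RT1-CE heavy chains were 0 of 8 called on day -4, with a median difference of 1.10 over the 8 and a difference above 0 in each. RT1-A1 differed by 1.76 ± 0.67 (adjusted p = 0.102) and RT1-A2 by 1.03 ± 0.35 (adjusted p = 0.0690), so neither passed. The median difference on day -4 was 0.50 over the 30 class I genes and 0.07 over the 13 class II genes, beside 0.07 over all features. The class I calls of day -4 rest on few arrays. They numbered 1 without irradiated replicate 1, and 0 without either unirradiated replicate or without the arrays of set II, while array weights gave 11.

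By day 14 the immunoproteasome subunits differed. Psmb8, the LMP7 subunit that replaces a constitutive one in immune cells and under interferon, had 8.88, 9.33 and 10.38 after radiation and 7.49 and 8.13 without. All irradiated arrays lay above both unirradiated ones, by 1.73 ± 0.41 in the mean (SE; adjusted p = 0.00926). Psmb9, its partner LMP2, had 7.46, 7.98 and 9.68 against 6.54 and 6.62 and differed by 1.79 ± 0.49 (SE; adjusted p = 0.0209). Psmb10, the MECL-1 subunit, had 7.06, 7.78 and 9.82 against 6.58 and 6.50, a difference of 1.68 ± 0.45 (SE; adjusted p = 0.0179). In all 3 genes replicate 3 was the highest irradiated array. Psme1 was higher by 1.07 ± 0.28 (SE; adjusted p = 0.0165). B2m and Tap1, called on day -4, differed by 1.03 ± 0.38 and 1.20 ± 0.46 on day 14 with overlapping arrays and did not pass (adjusted p = 0.0979 and 0.121). None of the 14 constitutive proteasome genes measured beside them was called on day 14, and their median difference was 0.044.

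RT1-M6-2, a nonclassical class I gene, was the only member called lower. On day 1 it had 5.18, 5.32 and 5.56 after radiation and 6.67 and 6.56 without, a difference of -1.26 ± 0.33 (SE; adjusted p = 0.0351). The irradiated arrays lay at the level of the negative controls, and counted from that level the difference is -0.44. On day 14 the difference was -1.12 ± 0.33 (SE; adjusted p = 0.0312), or -0.29 counted from the control level. The call of day 1 was lost without any 1 of the irradiated arrays or unirradiated replicate 1, and that of day 14 without irradiated replicate 2 or 3 or either unirradiated array.

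Class II genes showed the largest differences among the members on day 14. RT1-Da, the alpha chain of the RT1-D molecule, had 13.85, 15.41 and 16.20 after radiation and 11.33 and 12.79 without. The groups did not overlap, and the difference was 3.09 ± 0.67 (SE, n = 3 and 2; limma adjusted p = 0.00437). On day 7 the same gene had 14.72, 14.81 and 14.38 against 12.59 and 12.71, again apart, but the difference of 1.99 ± 0.67 did not pass (adjusted p = 0.0865).

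RT1-DMa and RT1-DMb encode the DM molecule, which exchanges the invariant chain fragment for peptide. RT1-DMa had 10.87, 10.32 and 10.18 on day 7 against 8.97 and 8.18, a difference of 1.88 ± 0.54 (SE; adjusted p = 0.0410). It was the only member called on day 7. On day 14 it had 9.84, 10.60 and 11.56 against 8.03 and 8.17, a difference of 2.56 ± 0.54 (SE; adjusted p = 0.00364). RT1-DMb had 9.68, 11.30 and 12.82 against 7.45 and 8.82 on day 14 and differed by 3.13 ± 0.59 (SE; adjusted p = 0.00150). No array of either gene crossed between the groups on day 14.

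The invariant chain Cd74, which guides class II chains to endosomes, had 15.30, 16.40 and 17.46 on day 14 against 13.25 and 14.73. The irradiated arrays were all higher, by 2.40 ± 0.61 in the mean (SE; adjusted p = 0.0145). Ifi30, the lysosomal thiol reductase that unfolds antigens, had 12.10, 13.42 and 15.37 against 11.08 and 10.97 and differed by 2.60 ± 0.52 (SE; adjusted p = 0.00226). Ciita had 4.92, 7.22 and 7.20 against 4.77 and 5.34. Its replicate 1 lay between the unirradiated arrays, so the groups overlapped, and the difference was 1.40 ± 0.42 (SE; adjusted p = 0.0375), or at least 0.35 above the control level. RT1-Bb, the beta chain of RT1-B, had the same lone low array, with 4.65, 8.37 and 8.91 against 4.43 and 5.95, and did not pass at 2.12 ± 0.80 (adjusted p = 0.113). The low array and both unirradiated arrays lay below their negative control medians.

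The median difference on day 14 was 1.58 over the 13 class II genes and 0.80 over the 30 class I genes, beside 0.0059 over all features. All 13 class II genes were above 0, from 0.11 to 3.13. On day 7 these medians were 1.05, 0.12 and -0.056. Irradiated replicate 1 of day 14, the array of set II, was the lowest irradiated array of Psmb8, Psmb9, Cd74, RT1-Da, RT1-DMa, RT1-DMb and Ifi30. Without it 16 class I genes were called higher, and without set II altogether 13. Without irradiated replicate 3 the counts on day 14 fell to 0 class I and 3 class II genes, and without unirradiated replicate 1 to 0 and 0. In the latter fit Ifi30 had an adjusted p of 0.0586, RT1-DMa 0.0910 and RT1-DMb 0.1156. A fit of the compared groups alone called 0 members of either class. The day 7 call of RT1-DMa was lost without any 1 of the 5 arrays and under quantile normalization.

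**Figure D2:**
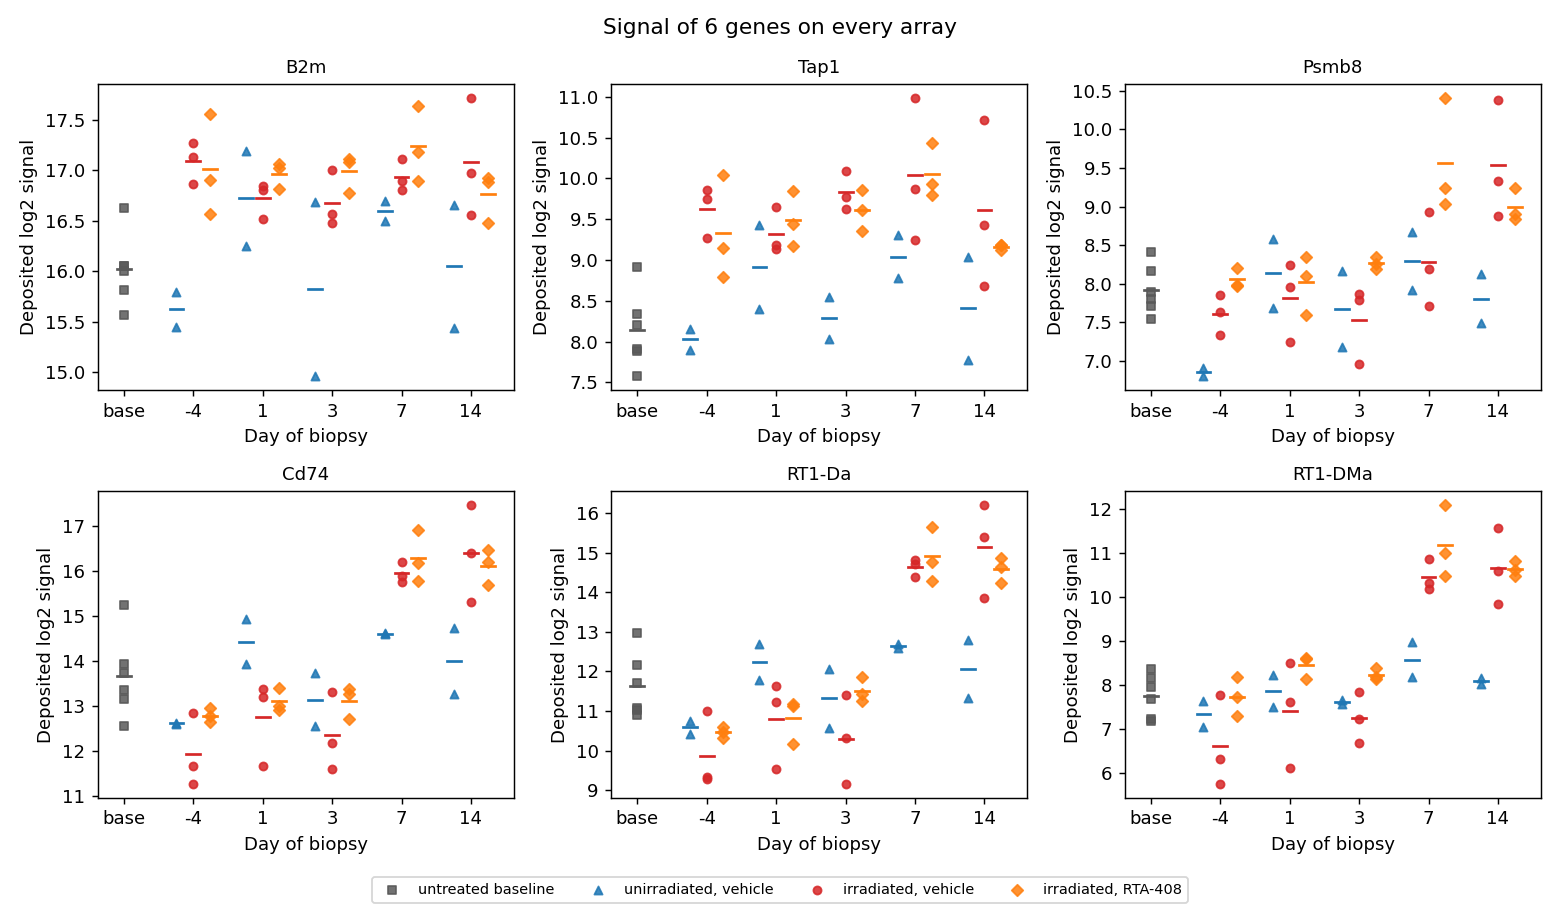
Each point is 1 array and gives the deposited log2 signal of B2m, Tap1, Psmb8, Cd74, RT1-Da or RT1-DMa at baseline and on each day; short lines are group means and the vertical scale differs between panels. Cd74 reaches 15.75 to 16.20 on day 7 in irradiated vehicle skin and 15.78 to 16.90 with RTA-408, against 14.58 and 14.62 without radiation.

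Against baseline, irradiated vehicle skin had more members called higher on days 7 and 14 than on days -4, 1 and 3. Of 44 members, 4 were higher and 2 lower on day -4, beside 6.46% and 4.26% of all features. On day 1, 2 were higher and 1 lower (5.08% and 4.65%), and on day 3 again 2 and 1 (4.57% and 3.97%). The counts of days 1 and 3 are near the shares of all features, so nothing is read from them. On day 7, 19 were higher and 1 lower (7.92% and 6.06%), and on day 14, 21 were higher and 1 lower (9.47% and 5.96%). The late counts include 10 of 13 class II genes on day 7 and 9 on day 14, and 9 and 12 of 30 class I genes. Within class I, 7 and 8 of the 9 processing genes were higher on these days. Of the 8 RT1-A and RT1-CE chains 2 and 3 were higher, and of the 13 nonclassical genes 0 and 1. The class II medians were -0.16, -0.15, -0.26, 2.18 and 2.72 over the 5 days, and the class I medians 0.19, 0.28, 0.34, 0.36 and 0.74.

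Tap1 was called higher on all 5 days. At baseline it ran from 7.57 to 8.92 with a median of 8.06, and irradiated vehicle skin had 9.13, 9.65 and 9.18 on day 1 and 9.63, 9.77 and 10.09 on day 3. These arrays all lay above the highest baseline array. Its differences from baseline were 1.48, 1.18, 1.69, 1.90 and 1.47 from day -4 to day 14, with limma adjusted p between 2.62e-04 and 0.0294. Psme1, a subunit of the proteasome activator, was also called on all 5 days, by 0.70, 0.77, 0.66, 0.97 and 1.11. With the spike-in set as a block Tap1 passed on day -4 (adjusted p = 0.0197) and on no later day (0.0821, 0.456, 0.257 and 0.569), and Psme1 passed on no day (adjusted p from 0.0548 to 0.715). RT1-CE10, a heavy chain gene, ran from 7.84 to 7.96 at baseline and was 8.60, 8.71 and 8.73 on day -4, a difference of 0.78 (adjusted p = 0.0487). Calls of these early days rest on single arrays. Leaving out baseline replicate 1, 3 or 5 or any irradiated array of the day brought the class I count from 4 to 1 or 2 on day -4, and the count of 2 on day 1 fell to 0 without baseline replicate 1 or irradiated replicate 2 or 3.

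Cd74 and RT1-Da were called lower than baseline on day -4 and higher later. Cd74 ran from 12.54 to 15.23 at baseline, with a median of 13.54, and was 11.26, 12.84 and 11.65 on day -4. Of these arrays 2 lay below the baseline range and 1 within it, and the mean differed by -1.74 (adjusted p = 0.0147). RT1-Da ran from 10.90 to 12.97 at baseline and was 9.34, 11.00 and 9.27, a difference of -1.77 (adjusted p = 0.0231). Both calls were lost without irradiated replicate 1 or 3. They were also lost with the replicate number as a block (limma adjusted p = 0.1185 and 0.1094). In this comparison that block joins different rats and leaves the baseline to its replicates 1, 2 and 3, so it does not account for the rat. Unirradiated skin on day -4 differed from baseline by -1.05 for both genes in the mean, which did not pass, and irradiated skin was not called different from it.

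On day 7 Cd74 was higher than baseline by 2.29 ± 0.48 (SE; adjusted p = 7.71e-04) and RT1-Da by 3.00 ± 0.52 (SE; adjusted p = 8.75e-05). RT1-DMa rose by 2.69, RT1-DMb by 2.90 and Ifi30 by 2.26. On day 14 RT1-Da was higher by 3.52, RT1-DMb by 3.25, Ifi30 by 2.94, RT1-DMa by 2.90 and Cd74 by 2.73. RT1-Ba, the alpha chain of RT1-B, had 7.77, 9.82 and 10.22 on day 7 and 6.92, 9.50 and 11.04 on day 14, where its baseline ran from 5.64 to 7.85. Its differences of 2.83 and 2.72 passed although the arrays overlapped. RT1-Db1, the beta chain of RT1-D, had 5.52, 5.89 and 7.01 on day 7 and 5.12, 6.67 and 7.63 on day 14, all above its baseline of 3.25 to 4.79. RT1-Bb, RT1-Db1 and Ciita were at the negative control level at baseline, so their differences on day 14 are bounds of at least 1.14, 0.30 and 0.28. The RT1-Db1 arrays of 5.52 and 5.89 on day 7 also lay below their control medians. The class II genes that did not pass on day 14 were RT1-DOa, RT1-DOb, RT1-Db2 and RT1-Ha. The DO molecule, made of RT1-DOa and RT1-DOb, restrains DM.

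With the spike-in set as a block fewer members were called higher than baseline on every day. The class I count of higher genes went from 4 to 2 on day -4, to B2m and Tap1, and from 2 to 0 on days 1 and 3. On day 7 the class I count went from 9 to 0 and the class II count from 10 to 1, which was RT1-DMa. On day 14 class I went from 12 to 0 and class II from 9 to 4, which were Ifi30, RT1-DMa, RT1-DMb and RT1-Da. On day 14 leaving out irradiated replicate 3 left 2 class I genes and leaving out replicate 1 gave 19. On day 7, 5 class I genes were left without replicate 1 and 4 without replicate 3.

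Irradiated skin with RTA-408 was set against the same baseline arrays, so its values share those controls. The counts of higher members were 4, 4, 6, 23 and 12 over the 5 days, and 1, 1, 1, 0 and 0 were lower. Of all features 4.22%, 6.17%, 5.33%, 9.12% and 5.53% were called higher and 1.57%, 4.79%, 4.36%, 6.67% and 4.71% lower. Class II genes supplied 0, 0, 1, 9 and 8 of the higher calls, and the 1 on day 3 was Ifi30, with 11.76, 11.79 and 12.42 against a baseline of 10.27 to 11.28. With the spike-in set as a block the class I count went from 4 to 1 on day -4, from 5 to 0 on day 3, from 14 to 2 on day 7 and from 4 to 0 on day 14. The class II count went from 1 to 0 on day 3, from 9 to 4 on day 7 (Ifi30, RT1-DMa, RT1-DMb and RT1-Da) and from 8 to 1 on day 14 (RT1-DMa). Replicates 1 and 2 of this arm and of baseline are the same rats, in 10 of 15 pairs over the days. With the replicate number as a block the lower calls of RT1-M6-2 on days 1 and 3 were lost (adjusted p = 0.163 and 0.120), as was that of Cd1d1 on day -4 (0.230). Higher calls lost were those of RT1-CE5 on day -4 (0.0534), RT1-CE3 on day 7 (0.0708), RT1-CE10 on day 14 (0.118) and RT1-Db2 on days 7 and 14 (0.0794 and 0.0795).

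RT1-DMa had 12.09, 10.47 and 11.00 on day 7 with RTA-408, all above the highest baseline array of 8.37, and differed by 3.43 ± 0.42 (SE; adjusted p = 5.42e-07). RT1-Da differed by 3.27, RT1-DMb by 3.24, Ifi30 by 2.82 and Cd74 by 2.63 on that day. RT1-Db1 had 6.66, 6.03 and 5.59 on day 7 and 6.26, 6.67 and 6.96 on day 14, again all above its baseline arrays. Its baseline lay at the negative control level, and 5.59 lay below that array's control median of 5.78. On day 14 RT1-DMb differed by 2.96, RT1-Da by 2.95, RT1-DMa by 2.88 and Cd74 by 2.46.

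Among class I genes RT1-CE5, a heavy chain gene, ran from 7.58 to 8.13 at baseline and was 9.30, 9.27 and 9.31 on day 3. Its difference was 1.48 on day 3 and 1.68 on day 7, when Psmb8 differed by 1.64, Psmb9 by 1.84, Tap1 by 1.91 and RT1-S3, a nonclassical gene, by 1.98. On day 14 the called class I genes were Psmb8, Psme1, RT1-A2 and RT1-CE10, from 0.79 to 1.08. Leaving out baseline replicate 3 or any 1 of the 3 RTA-408 arrays of day 14 left 1 class I gene, and leaving out baseline replicate 1 left 2. On day -4 the class I count of 4 fell to 0 without RTA-408 replicate 3. The day 3 call of Ifi30 was lost without any 1 of the RTA-408 arrays.

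Unirradiated vehicle skin was called different from baseline for 0 of 44 members on every day. The shares of all features called were 0.0173% on day -4, 0.315% on day 1, 0% on day 3, 2.71% on day 7 and 0% on day 14. In limma, the only tool run, 2 class I genes and 1 class II gene had an unadjusted p under 0.05 on day -4. The same was true of 2 and 1 on day 1, 0 and 0 on day 3, 3 and 1 on day 7, and 0 and 0 on day 14. The class II median against baseline was 0.81 on day 7, when Cd74 had 14.58 and 14.62 and RT1-Da 12.59 and 12.71. With 2 arrays per day, differences of this size did not pass.

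**Figure D3:**
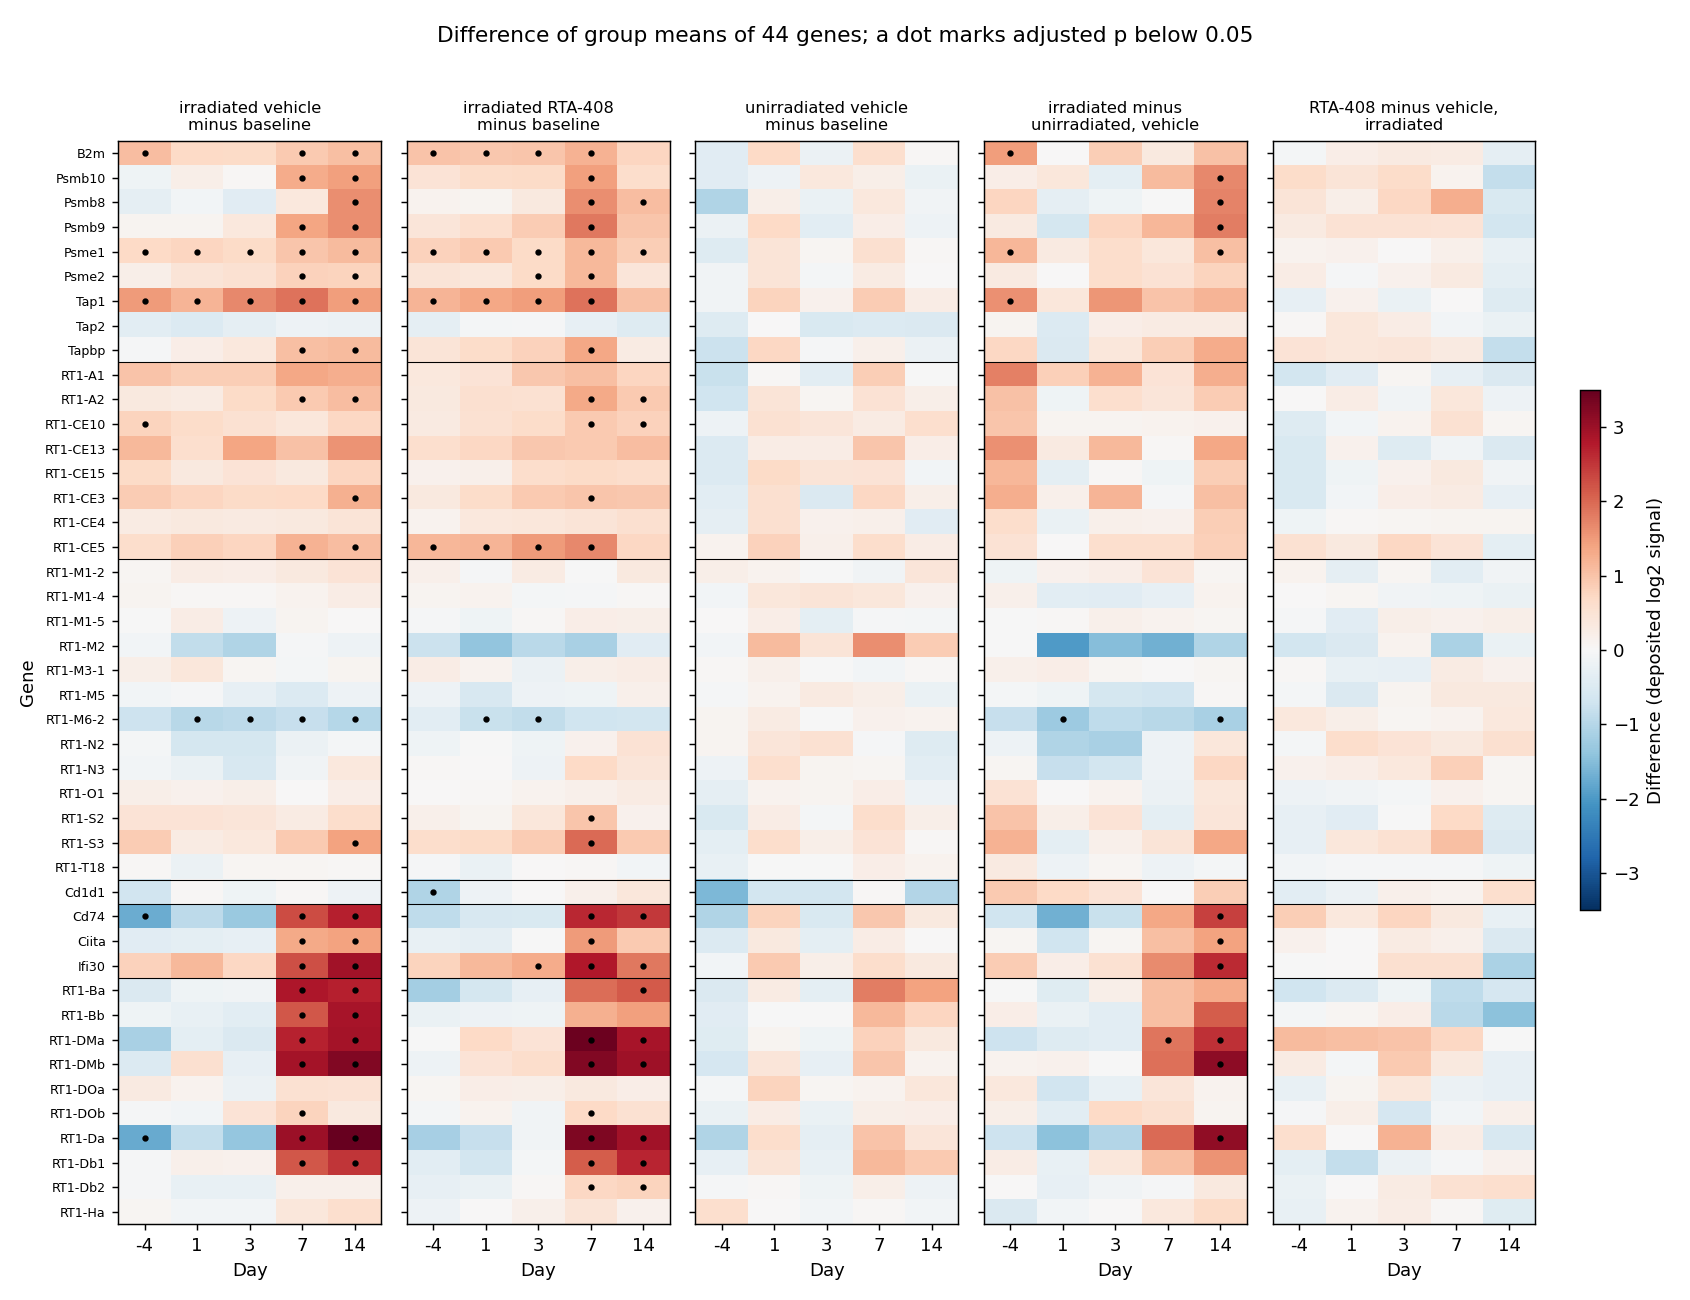
Rows are the 44 genes in their groups, columns the 5 days of each comparison, and colour the difference of group means in deposited log2 units; a dot marks an adjusted p below 0.05. Class II genes carry the strongest colours on days 7 and 14, up to 3.52 for RT1-Da in irradiated vehicle skin, while the unirradiated and the drug panels hold no dot.

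Change over the 5 days was tested within each arm. In irradiated vehicle skin 13 of 44 members changed, 10 of the 13 class II genes together with Psmb8, Psmb9 and Psmb10, where 14.2% of all features did so. The smallest adjusted p were 3.16e-08 for RT1-Da, 9.99e-08 for RT1-DMa and 1.79e-07 for Cd74 (limma moderated F-test). With RTA-408 11 members changed, 9 of class II with Psmb8 and Cd1d1, beside 6.26% of all features. In unirradiated skin 0 members changed, beside 1.13%, in the same limma fit. Within an irradiated arm the replicate number is the rat, and with it as a block RT1-DOb was lost with vehicle and Cd1d1 with RTA-408, which left 12 and 10 members. Without irradiated vehicle replicate 3 on all days the first count was 5, all of class II, and with RTA-408 the counts were 5, 7 and 5 when replicates 1, 2 and 3 were left out.

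Days 3, 7 and 14 could also be compared within spike-in set III alone, with 18 arrays over all arms and 9 residual degrees of freedom. For irradiated vehicle skin these were rats 321 and 320 on days 3 and 14, and rats 322 and 320 on day 7. The rats of that arm were thus few and not the same on every day. In irradiated vehicle skin 7 class II genes and 0 class I genes were called, beside 3.08% of all features. RT1-Da was higher than on day 3 by 4.28 on day 7 and by 5.53 on day 14 (adjusted p = 0.00374). Cd74 was higher by 3.38 and 4.48 (adjusted p = 0.00622). The class II medians of these differences were 1.76 and 2.98, and the class I medians 0.19 and 0.53. With RTA-408 0 members were called (0.0216% of features) although the class II medians were 1.77 and 1.79 and Cd74 differed by 3.56 and 3.36 (adjusted p = 0.0769). In unirradiated skin, with 0 called (0.263%), the class II medians were 0.95 and 0.46.

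The radiation effect itself was tested for a difference between days. It differed for Cd74 (adjusted p = 0.0215), RT1-DMa (adjusted p = 0.0183) and RT1-Da (adjusted p = 0.0121) in limma's moderated F-test, and for 2.16% of all features. For Cd74 the irradiated minus unirradiated difference was -0.69 on day -4 and 2.40 on day 14, and for RT1-Da it was -0.72 and 3.09. No class I gene passed. The count was 10 without irradiated vehicle replicate 1, and 0 without irradiated vehicle replicate 3 or unirradiated replicate 1.

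RTA-408 was compared with vehicle in irradiated skin, the comparison the study was made for, with 3 rats against 3. None of the 44 members passed on any day. All-feature calls were 0.0474%, 0.0733%, 0.00431%, 0% and 0% over the 5 days. The numbers of members with an unadjusted p under 0.05 were 1, 1, 3, 4 and 4 in limma, the only tool run. The class I and class II medians were 0.29 and 0.17 on day 7 and -0.23 and -0.29 on day 14.

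RT1-DMa had 8.19, 7.73 and 7.31 on day -4 with RTA-408 and 6.33, 7.78 and 5.76 with vehicle. The vehicle arrays of 6.33 and 5.76 lay below their negative control medians of 6.49 and 6.42. The difference of day -4 and the mean over the days thus rest partly on values at that level. On day 3 RT1-DMa had 8.40, 8.15 and 8.18 against 7.23, 7.84 and 6.68, with every RTA-408 array above every vehicle array. Its differences were 1.12 on day -4, 1.04 on day 1, 0.99 on day 3, 0.73 on day 7 and -0.03 on day 14, each with an SE of 0.48, and none passed. Averaged over the 5 days it was 9.26 ± 0.27 (SD, n = 3 rats) with RTA-408 and 8.48 ± 0.39 with vehicle, a difference of 0.77 ± 0.21 (SE; limma adjusted p = 0.99999).

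Psmb8 on day 7 had 10.41, 9.03 and 9.23 with RTA-408 and 8.93, 8.19 and 7.72 with vehicle. The arrays did not overlap, yet the difference of 1.28 ± 0.37 (SE) did not pass (adjusted p = 0.99988). On day 14 the vehicle arrays were the wider group, and Ifi30 had 12.80, 11.85 and 12.94 with RTA-408 against 12.10, 13.42 and 15.37. Its difference was -1.10 ± 0.46 (SE; adjusted p = 0.320). Without vehicle replicate 1 on day 14, 5 members were called lower with RTA-408, namely Psmb10, Tapbp, Ciita, Ifi30 and RT1-Bb. Without the arrays of set II 1 was called lower, Ciita (adjusted p = 0.0468). The drug effect differed between days for 0 members, beside 0.0129% of all features.

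Some members differed between rats. After baseline each rat was in a single arm, and whether the rat differences hold across arms and days was not tested. After group means were removed, 3 members differed between the 9 rats in limma's moderated F-test, where 0.259% of all features did. RT1-N2, a nonclassical class I gene, had an adjusted p of 4.16e-07 and ranked 3 among all features, with 92.6% of its residual variation between rats. Rat 320 ran from 5.06 to 6.03, rat 317 from 5.98 to 6.24, rat 303 from 6.14 to 6.76 and rat 321 from 6.04 to 6.76. The other 5 rats ran from 6.75 to 7.71 over their arrays after baseline. The sets met at the highest arrays of rats 303 and 321, both 6.76, and the lowest of rat 319. RT1-N2 was above the negative control median on 37 of the 46 arrays. These medians ran from 5.78 to 6.52, so low values lay near them and the size of the rat differences is uncertain.

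RT1-CE13, a class I heavy chain gene, had an adjusted p of 2.90e-04 and 82.0% of residual variation between rats. Rats 303, 317, 320 and 321, the ones low in RT1-N2, ran from 8.74 to 9.45, 8.50 to 8.87, 7.96 to 10.3 and 8.51 to 9.31. Rats 322, 323, 324, 318 and 319 ran from 6.77 to 8.31. RT1-Ba differed too (adjusted p = 0.0273), with 9.49 and 9.51 in rat 317 and 5.83 to 6.22 in rat 318, but rat 317 was sampled on days 7 and 14 and rat 318 earlier. That call was lost with the spike-in set as a block (adjusted p = 0.0731) and without rat 303, 317, 318, 319, 321, 323 or 324. Level and sequence mismatch with a probe cannot be told apart for RT1 genes, which vary between outbred rats. Each irradiated vehicle group held rat 322 and rats 320 and 321, so group means of these genes depend on which rats were sampled.

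**Figure D4:**
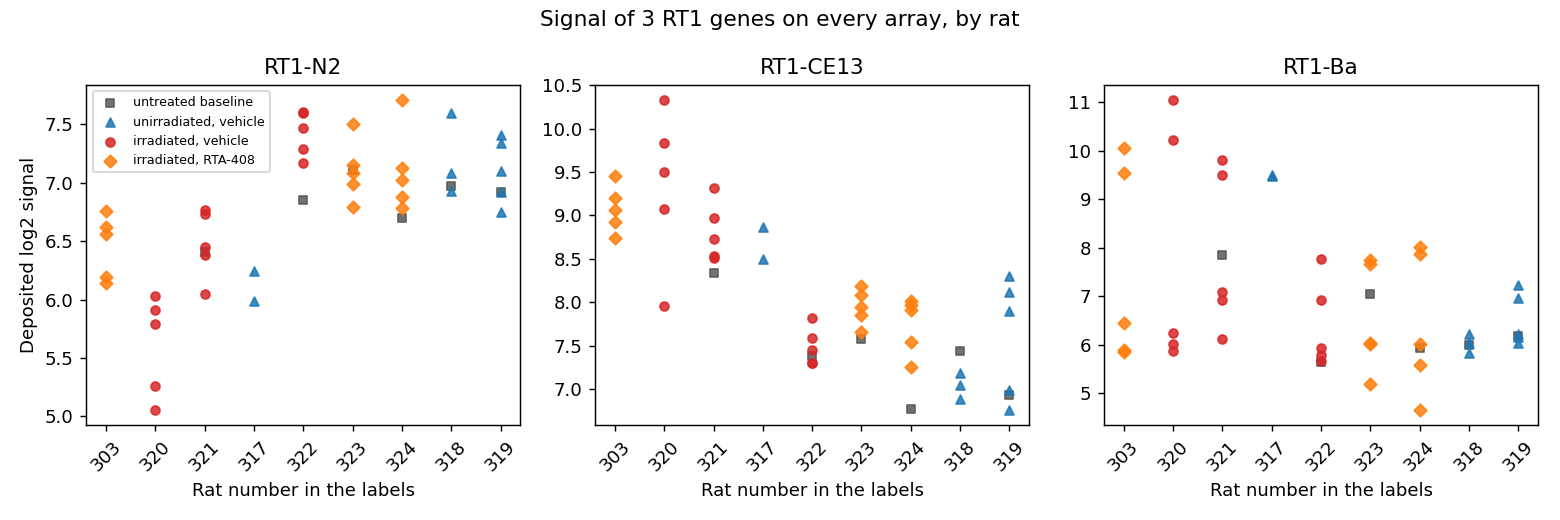
Each point is 1 array, placed by rat, and gives the deposited log2 signal of RT1-N2, RT1-CE13 or RT1-Ba; colour and shape give the arm. Rats 303, 320, 321 and 317 lie low for RT1-N2, from 5.06 to 6.76, and from 7.96 to 10.3 for RT1-CE13 after baseline.

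Markers of immune cells moved with the late class II calls. After radiation 2.69% of all features were called higher on day 7 and 4.43% on day 14, the shares beside the list counts below. Of 12 macrophage and monocyte markers, 7 were higher after radiation on day 7 and 12 on day 14, with a median of 4.02 on day 14. Their mean ran from 10.5 to 15.2 in irradiated and 8.18 to 9.11 in unirradiated vehicle skin on day 14, and from 7.75 to 8.98 at baseline. Cd163, a scavenger receptor, differed by 5.56, Mpeg1, a pore-forming protein of phagocytes, by 4.40 and C1qb, a complement subunit, by 4.20. On day -4 against baseline 0 of 12 passed in irradiated vehicle skin, with a median of 0.78.

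Of 11 T and NK cell markers, 7 were higher on day 14, and their mean ran from 5.78 to 8.48 against 5.17 to 5.38. Of 7 dendritic cell markers 3 were higher, Clec10a by 4.30, Xcr1 by 1.98 and Clec9a by 1.40. The 3 B cell markers measured (Blk, Cd79b and Pax5) were not called on day 14, and their mean of 4.23 to 4.68 in irradiated skin lay below the negative control medians. The part of these cells in the class I and class II differences was not tested. With RTA-408, against baseline, 12 macrophage markers were higher on day 7 and 10 on day 14, beside 9.12% and 5.53% of all features.

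Other genes of the 2 routes were followed by lists. Of 23 measured genes of the interferon gamma axis and MHC transactivation, 2 were higher after radiation on day 7 and 7 on day 14, none lower. The shares of all features called higher were 2.69% and 4.43% on these days, here and for the lists that follow. Gbp2, an interferon-induced GTPase, differed by 2.85, Irf1, a transcription factor of interferon responses, by 2.00 and Gbp5 by 1.73 on day 14. Ifng itself differed by 0.37 (adjusted p = 0.613) and Rfx5, a subunit of the factor that recruits CIITA, by -0.18 (adjusted p = 0.818), and neither passed.

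Of 6 endosomal proteases of the class II route, 3 were higher on day 7 and 2 on day 14. Ctss, cathepsin S, which trims the invariant chain, differed by 4.50 and Lgmn, an endosomal endopeptidase, by 3.18 on day 14. Of 6 costimulatory and checkpoint ligands 4 were higher on day 14, among them Cd86 by 2.60, Cd80 by 2.28 and Cd274, which encodes PD-L1, by 2.04. Of 6 chaperones of class I assembly 4 were higher on day 7 and 2 on day 14, Calr by 0.81 and Tapbpl by 1.03.

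Likeness across all 46 arrays was measured by Pearson's r, as a description, since arrays share rats, days and spike-in sets. The genes most like the median of the class II chains were Icos (0.900), Ly86 (0.893), Rac2 (0.884), Klrc3 (0.882) and Mmp13 (0.875). The class I processing median was taken here without Psme1 and Psme2. Those most like it were Klrk1 (0.909), Ptprc (0.903), Lcp1 (0.901), Rgs18 (0.900) and Cd53 (0.895). This class I median and that of the class II chains had r = 0.762 with each other.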

How the data were processed

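The authors deposited 1 log2 signal per feature and array. The labels name the array and the labelling kit, while the sources used here do not give the normalization method. Signals were used as deposited. Of 24834 rows 1646 are controls, and the remaining 23188 features were all tested, with no filter on low signals. Symbols were those of the supplied array annotation, and coordinates and promoters come from RefSeq on GRCr8.

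The 46 arrays formed 16 groups of arm and day. For unirradiated replicate 2 of day 1 a description names day 3, and its title was followed. Group means were fitted with limma 3.58.1 in R 4.3.3 over all arrays (30 residual degrees of freedom), and the Benjamini-Hochberg adjustment ran over the 23188 features within each comparison and day, with calls made under 0.05. SD is between arrays of a group, and SE comes from the fit. Rats were compared with 8 rat terms added (22 residual degrees of freedom). Arrays of a rat are not independent, and p-values measure only the spread between these samples. Precision is limited by the number of arrays. The code was tested on simulated data.

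Any member could be named. Values of every array were given, on 1 or more days, for a fixed panel of 12 (B2m, Tap1, Psmb8, Psmb9, Cd74, Ciita, RT1-Da, RT1-Ba, RT1-Bb, RT1-Db1, RT1-DMa and RT1-DMb) and for members with the smallest adjusted p. Up to 3 genes of a list were named by the size of a called difference. Ifng, Rfx5 and the B cell markers were named after their values were seen. The members and lists were chosen with earlier results of these data known. Alternatives were quantile normalization, a filter on dim features (17391 left), array weights, a random block for the rat, a fixed block for the replicate number, fitting just the compared groups, and leaving out arrays in turn. The spike-in set was inferred from spike-in levels, as known from an earlier analysis of these data, is named in no label, and was used as a block, and restricting the arrays to sets was added after these data were seen. Replicate numbers mark the same rat over the days within an irradiated arm and in 10 of 15 pairs of RTA-408 and baseline arrays. Between the other groups compared, equal numbers mark different rats. Rats 322 and 321 of the irradiated vehicle arm and rats 319 and 318 of the unirradiated arm were baseline replicates 3, 4, 5 and 6. The replicate block did not use that pairing, and against baseline it left the baseline mean to replicates 1, 2 and 3.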

Additional observations from a re-analysis of the deposited data

Results flagged for a closer look

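The radiation effect, irradiated minus unirradiated vehicle skin, differed between the 5 days for 3 members in limma's moderated F-test. The adjusted p was 0.0215 for Cd74, 0.0183 for RT1-DMa and 0.0121 for RT1-Da. These are the tests described above, and no explanation was tested.

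Outlying arrays were looked for among the 6 baseline arrays of each of the 44 members, and 2 members had one. Chance gives about 1 in 20 groups. RT1-M2 was 6.92 in baseline replicate 4, where the next array was 5.62 and the far end of the group 5.17. RT1-T18 was 4.01 in baseline replicate 5, where the next was 3.66 and the far end 3.49, a gene at the level of the negative controls on every array.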

How the results depend on the processing

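Counts below are of the 44 members, summed over the 5 days where a comparison was made on each. Leaving out single arrays or rats gave 0 to 5 calls for RTA-408 against vehicle (0 with all arrays), 5 to 31 for radiation (16), 40 to 62 for irradiated vehicle against baseline (54), 35 to 53 for irradiated RTA-408 against baseline (52) and 0 to 1 for unirradiated skin against baseline (0). For change over the days these were 5 to 14 in irradiated vehicle skin (13), 5 to 7 with RTA-408 (11) and 0 to 0 in unirradiated skin (0). The radiation effect differed between days for 0 to 10 members (3) and rats for 2 to 3 (3). With the spike-in set as a block the counts were 26 for radiation, 11 and 13 for irradiated vehicle and RTA-408 skin against baseline, and 6 for change with RTA-408. Array weights gave 26 for radiation, 2 for unirradiated skin against baseline, 3 for its change over the days and 5 for a radiation effect that differs between days. Without set II the drug comparison called 1 member, and within set III alone 7 members changed in irradiated vehicle skin and 0 with RTA-408. The cause was not tested, except that single left-out arrays and the restriction to a set leave fewer samples. With the replicate number as a block (replicate block) the counts were 0 for the drug, 15 for radiation, 53 and 48 against baseline in irradiated skin, 12 and 10 for change and 4 for the radiation effect between days. The counts against baseline rested on baseline replicates 1, 2 and 3 alone. Same-numbered arrays are the same rat in 10 of 15 pairs of RTA-408 and baseline arrays, with r of their deviations from -0.48 to 0.346, and within an irradiated arm over the days. In the drug comparison they are different rats (r from -0.378 to 0.254), as they are between irradiated vehicle skin and baseline (r from -0.223 to 0.473). With the replicate number as a block, no sum moved by over 1.5 times. The sums given above with the spike-in set as a block all did. Of 124 single-gene results, 122 of them called, 15 kept their call under every alternative listed, and no result reversed its direction. Signals near the negative controls limit what can be said of 7 members on every array.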

Other observations

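RT1-M2, a nonclassical class I gene, had the lowest differences of any member between irradiated and unirradiated vehicle skin on days 1, 3 and 7, of -1.98, -1.50 and -1.67 (SE 0.65). None passed (limma adjusted p = 0.0927, 0.287 and 0.150). Counted from the negative control level, the difference was at least -0.55 on day 1 and -1.13 on day 7.

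Cd1d1, the lipid-presenting relative of class I, was lower than baseline on day -4 with RTA-408 by -1.04 (adjusted p = 0.0311), with 7.00, 7.49 and 7.16 against 7.26 to 8.87 at baseline. It was 6.60 and 6.76 in unirradiated vehicle skin on that day, lower than every baseline array, a difference that did not pass.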
